A study of Homo sapiens with 4 samples.

Results

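TRIM proteins carry a tripartite motif, in which a RING finger that recruits ubiquitin-conjugating enzymes is followed by zinc-binding B-boxes and a coiled coil. Most members are ubiquitin ligases, and the part behind the coiled coil, often a SPRY domain, chooses the substrate. Many members restrict viruses or tune the signalling that leads to interferon, some of them are themselves induced by interferon, and others serve as nuclear corepressors or cytoskeletal proteins. The genes described here are the protein-coding rows of the gene count table whose symbol is TRIM followed by a number and at most a single letter, which selected 73 of 58735 genes. RNA of HCC1954 cells, an established human breast cancer line, was sequenced from 2 samples with a scrambled hairpin (shCON) and 2 samples with a hairpin against the palmitoyltransferase gene ZDHHC15 (shZDHHC15). Both groups received GIPZ short hairpin vectors and grew in medium with serum, and the labels speak of a stable knockdown in one place and of a transient transfection in another. The study's methods mention that clonal cultures were screened for the hairpins, and the labels do not say whether samples of a group came from separate cultures, so p-values measure the spread between these samples only.

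The targeted gene ZDHHC15 had 17617 and 15716 counts with the control hairpin and 0 and 0 counts with the ZDHHC15 hairpin. Total counts lay between 17560982 and 19118704 per sample. At these depths 3 counts, the limit that a count of 0 allows, correspond to 0.157 to 0.171 CPM (counts scaled to library size). The other CPM values also carry a normalization factor for each sample, which this limit leaves out. That limit covers counting error only. The summed level of 7 breast epithelial markers was 16524 to 17856 CPM in the shCON samples and 9461 to 9606 CPM in the shZDHHC15 samples, with ERBB2 at 5751 ± 240 and 4869 ± 225 CPM (SD, n = 2). KRT8 fell from 6049 ± 400 to 1966 ± 163 CPM (SD, n = 2). Of the 7 epithelial markers, 5 were called lower (71.4%, against 20.3% of all genes tested) and 1, KRT19, higher (14.3%, against 21.7%). Leukocyte markers summed to 0.888 to 2.25 CPM over 9 genes, and CD3E, CD3D and MS4A1 had no count in any sample. CD14, the only leukocyte marker tested, was called higher, with 0.394 ± 0.139 and 1.23 ± 0.157 CPM (SD, n = 2). The 7 fibroblast markers summed to 5.81 to 11.5 CPM. COL1A1, the only one of them tested, was called higher, with 6.29 ± 1.15 and 9.83 ± 2.33 CPM (SD, n = 2). The 4 endothelial markers summed to 57.0 to 57.1 CPM in shCON and 101 to 107 CPM in shZDHHC15 samples, of which CDH5 supplied 45.2 ± 1.4 and 70.6 ± 7.06 CPM and PECAM1 rose from 3.71 ± 0.561 to 28.2 ± 10.7 CPM (SD, n = 2). KDR, of the same list, fell from 7.94 ± 1.09 to 5.11 ± 0.967 CPM, and VWF had 0.207 ± 0.293 and 0.232 ± 0.176 CPM (SD, n = 2). The part of these shifts in the TRIM values was not tested. In bulk RNA, fewer cells that express a gene and less of its RNA per cell cannot be told apart.

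Of the 73 TRIM genes, 46 passed edgeR's filter on low counts and were tested. At an adjusted p under 0.05, 20 members were higher and 7 lower in shZDHHC15 than in shCON cells (edgeR's quasi-likelihood test, Benjamini-Hochberg adjustment over all 15817 genes tested), while 19 did not pass. Across all genes tested, 21.7% were higher and 20.3% lower, against 43.5% and 15.2% of the tested members. In the 27 called members the 2 samples of one group lay entirely above those of the other. Groups did not overlap in 37 of the 46 tested members, or 80.4%, against 72.5% of all genes tested. The median log2 fold change of the tested members was 0.24, and that of all genes was 0.02. The rises were larger than the falls. With a log2 fold change of at least 1, 9 members (19.6%) were called higher, against 7.51% of all genes. None was called lower at -1 or below, against 3.79% of all genes, and the count was also 0 by DESeq2. The lowest value among the tested members was -0.76 for TRIM35, so no p cutoff could give such a call in the main fit.

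**Figure D1:**
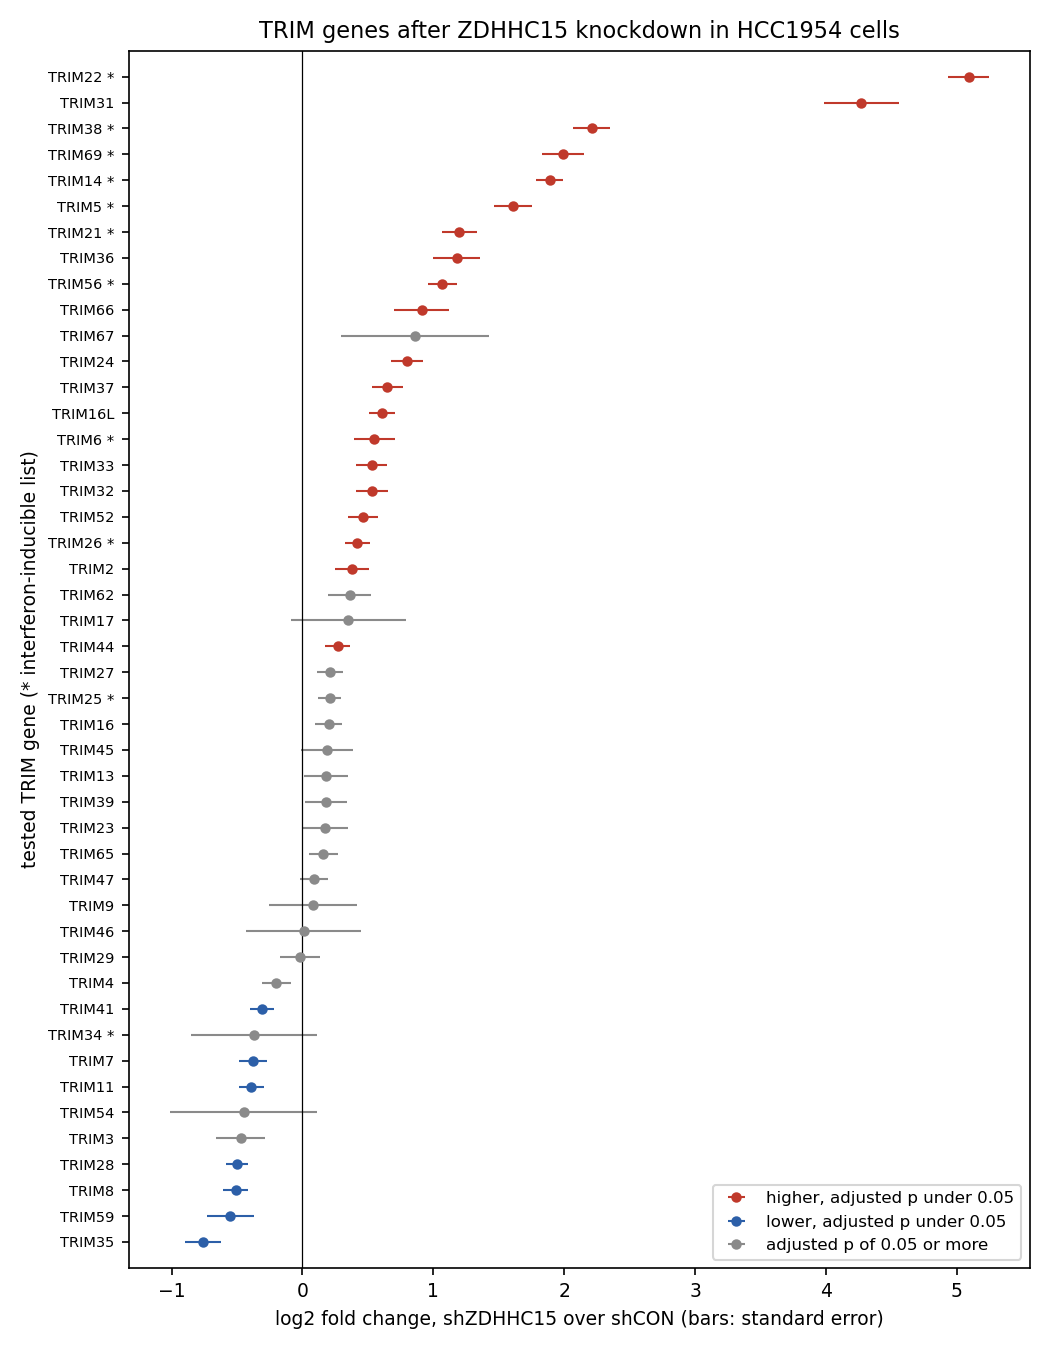
Log2 fold change of each of the 46 tested TRIM genes, shZDHHC15 over shCON, with bars for the standard error and an asterisk on the interferon-inducible list. The axis runs from -0.76 for TRIM35 to 5.09 for TRIM22, and the 20 red points are called higher and the 7 blue points lower.

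TRIM22, a ubiquitin ligase that restricts retroviruses and influenza virus, changed most. It lies on chromosome 11 from 5689689 to 5737089 on the plus strand and had 84 and 65 counts in shCON cells and 2951 and 2561 counts in shZDHHC15 cells. Its level rose from 4.22 ± 0.532 to 144 ± 19.8 CPM (SD, n = 2), which is 5.09 on the log2 scale with a standard error (SE) of 0.155 (adjusted p = 7.99e-12). Among the 73 members, TRIM22 was the 38th by level per kilobase of gene length in shCON cells and the 5th in shZDHHC15 cells. The exons of TRIM22 overlap those of the olfactory receptor gene OR56B1 over 642 bases, and OR56B1 had 0 counts in every sample.

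TRIM31, a ligase that acts on the mitochondrial adaptor MAVS, was the member with the next largest rise and is not on the interferon-inducible list. Its counts were 34 and 19 under shCON and 671 and 439 under shZDHHC15. The level rose from 1.49 ± 0.521 to 29.2 ± 9.66 CPM (SD, n = 2), which is 4.27 on the log2 scale with an SE of 0.288 (adjusted p = 3.16e-08). The groups were far apart, although the shZDHHC15 samples themselves had 36.0 and 22.3 CPM. Leaving out single samples gave log2 fold changes from 3.88 to 4.65. TRIM31 is on chromosome 6 from 30102897 to 30113106 on the minus strand. The antisense gene TRIM31-AS1 overlaps 4.92% of its exonic bases and received 3 and 1 counts in shCON and 8 and 7 counts in shZDHHC15 samples.

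The interferon-inducible TRIM genes were taken as a list of 11 members written from general knowledge, with earlier results of these data known. All 11 were tested, and 9 were higher (81.8%, against 21.7% of all genes) and 0 lower (against 20.3%). Their median log2 fold change was 1.20, against 0.02 over all genes. The count of lower members was also 0 at an unadjusted p under 0.05 and by DESeq2. TRIM34 (log2 fold change -0.37, SE 0.484) was the only listed member below 0, so that count had little room to differ. The summed level of the list was 596 and 589 CPM in the shCON samples and 1251 and 1133 CPM in the shZDHHC15 samples. It made up 19.8% to 20.8% of the CPM of the whole family in shCON and 34.6% to 36.7% in shZDHHC15 samples. In 10 of the 11 members, the library of shZDHHC15 replicate 1 had the higher level of the shZDHHC15 pair, against 27 of all 46 tested members.

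TRIM38, which curbs signalling from Toll-like receptors and the TNF receptor, had 14.2 and 14.4 CPM in the shCON samples and 75.0 and 57.9 CPM in the shZDHHC15 samples (log2 fold change 2.21, SE 0.142, adjusted p = 1.79e-08). TRIM69, which binds the phosphoprotein of vesicular stomatitis virus, had 9.58 and 13.7 CPM in shCON and 50.3 and 42.0 CPM in shZDHHC15 samples (log2 fold change 1.99, SE 0.16, adjusted p = 2.08e-07). TRIM14, a mitochondrial adaptor of MAVS signalling that lacks a RING finger, had 54.5 and 58.2 CPM in shCON and 222 and 196 CPM in shZDHHC15 samples (log2 fold change 1.89, SE 0.103, adjusted p = 2.76e-09). In all of them the lowest shZDHHC15 sample exceeded the highest shCON sample by more than the spread within either group. On a per-length scale TRIM14 moved from the 11th to the 2nd place of the family, from 10.3 to 38.3 CPM per kilobase. Its exons overlap those of the neighbouring gene NANS on the opposite strand over 7.72% of their bases, and NANS had 1153 and 1201 counts in shCON and 1134 and 1262 counts in shZDHHC15 samples.

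TRIM5, whose alpha isoform binds the capsid of incoming retroviruses, had 16.3 and 13.6 CPM in shCON and 50.7 and 40.7 CPM in shZDHHC15 samples (log2 fold change 1.61, SE 0.144, adjusted p = 6.73e-07). TRIM21, the cytosolic receptor for antibody-coated particles, had 14.1 and 15.6 CPM in shCON and 36.4 and 31.9 CPM in shZDHHC15 samples (log2 fold change 1.20, SE 0.133, adjusted p = 6.16e-06). TRIM56, a ligase that takes part in antiviral signalling and restricts several RNA viruses, had 83.8 and 72.8 CPM in shCON and 177 and 152 CPM in shZDHHC15 samples (log2 fold change 1.07, SE 0.109, adjusted p = 2.4e-06). These members rose between 2.1-fold and 3.05-fold, with no overlap between the groups. TRIM56 shares a stretch of 254 bases at 97.24% identity with AC114956.2, so some of its reads may be split with that gene.

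Smaller rises were found for TRIM6, which makes unanchored ubiquitin chains for the kinase IKBKE, and for TRIM26, which acts on IRF3 in the nucleus. TRIM6 had 9.15 and 9.59 CPM in shCON and 14.3 and 13.1 CPM in shZDHHC15 samples (log2 fold change 0.55, SE 0.157, adjusted p = 0.0116). TRIM26 had 105 and 109 CPM in shCON and 150 and 137 CPM in shZDHHC15 samples (log2 fold change 0.42, SE 0.0956, adjusted p = 0.00264). Both calls were lost without shZDHHC15 replicate 1, where the adjusted p was 0.0848 for TRIM6 and 0.0546 for TRIM26. TRIM6 shares 29.3% of its exonic bases with the readthrough gene TRIM6-TRIM34, which had 0 counts in every sample.

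TRIM25 and TRIM34 were the listed genes that did not pass the test. TRIM25, the ligase best known for attaching ubiquitin to RIG-I, was already the 2nd most abundant member per kilobase in shCON cells, with 284 and 277 CPM, and had 317 and 331 CPM in the shZDHHC15 samples (log2 fold change 0.21, SE 0.0872, adjusted p = 0.0704). Its groups did not overlap, and it passed with library size as the only scaling (adjusted p = 0.0159) and with the replicate number as a block (adjusted p = 0.0365). TRIM34, a close relative of TRIM5, had only 18 and 13 counts in shCON and 17 and 9 counts in shZDHHC15 samples (log2 fold change -0.37, SE 0.484, adjusted p = 0.57). With an SE of 0.484, only a large change of TRIM34 was detectable at this depth. Of its exonic bases, 83% also belong to TRIM6-TRIM34.

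**Figure D2:**
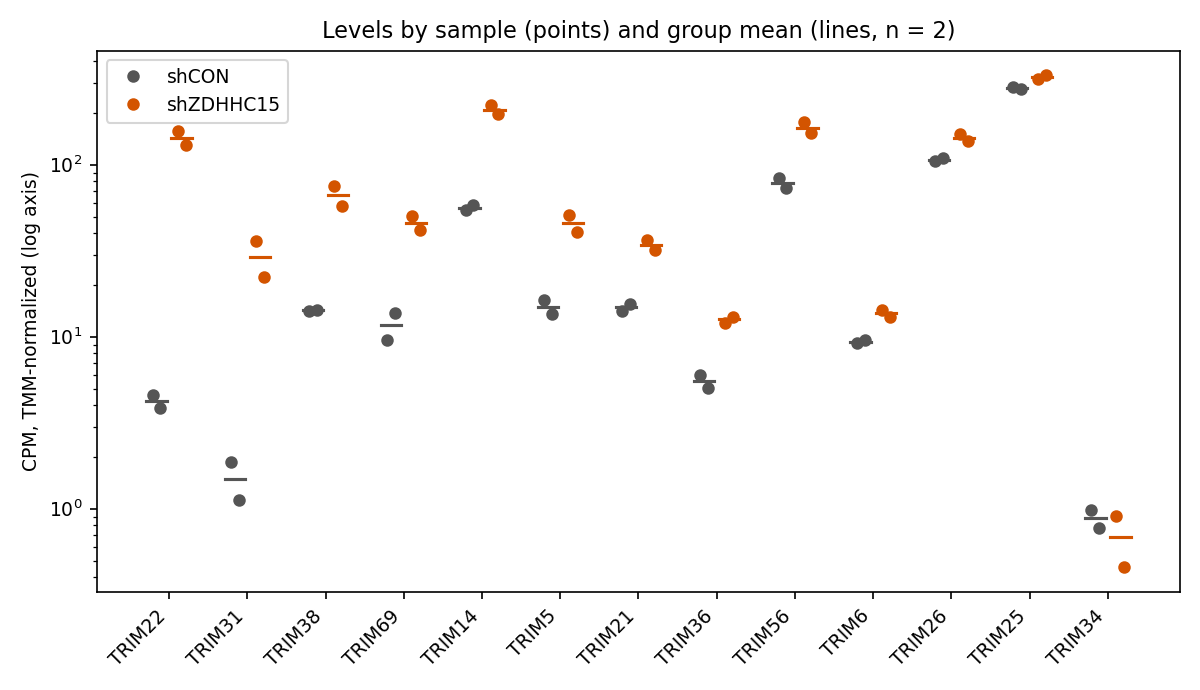
TMM-normalized CPM on a log axis in each of the 2 shCON and 2 shZDHHC15 samples (points) with group means (lines), for the 11 members of the interferon-inducible list and for TRIM31 and TRIM36, in order of their log2 fold change. The groups are far apart for TRIM22 (4.22 against 144 CPM on average), close for TRIM25 and overlapping for TRIM34.

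Promoter sequence was examined because members of the list rose together. RefSeq promoter windows on GRCh38.p14, each from 250 bases before to 50 bases after a transcript start, were found for 56 of the 73 members. The core of the interferon-stimulated response element, which is GAAA, any 2 bases and again GAAA, was searched on both strands, and overlapping matches were merged. It stood in at least 1 window of 10 of these 56 members (17.9%), against 4.38% of all 27305 genes with a window. Among the listed genes, TRIM5, TRIM14, TRIM21, TRIM26, TRIM34 and TRIM69 held it, and TRIM6, TRIM25, TRIM38 and TRIM56 had a window without it. TRIM22 had no window in the table. The other holders were TRIM2, TRIM16, TRIM44 and the untested TRIM64C. A match is a description of the letters and not a mapped site. The windows of the raised TRIM14 (chr9:98119173-98119472, minus strand), TRIM5 (chr11:5685025-5685324, minus strand), TRIM21 (chr11:4393653-4393952, minus strand), TRIM26 (chr6:30213357-30213656, minus strand) and TRIM69 (chr15:44736278-44736577, plus strand) are shown. TRIM34 was not called, and its window at chr11:5624751-5625050 (plus strand), which holds the core, is also shown. Its window at chr11:5632005-5632304 (plus strand) had no match and is not shown. The window of TRIM31 (chr6:30113041-30113340, minus strand), which rose strongly and lacks these letters, is shown as well. Each shown window reads along the gene, with the matched core in capitals.
TRIM14: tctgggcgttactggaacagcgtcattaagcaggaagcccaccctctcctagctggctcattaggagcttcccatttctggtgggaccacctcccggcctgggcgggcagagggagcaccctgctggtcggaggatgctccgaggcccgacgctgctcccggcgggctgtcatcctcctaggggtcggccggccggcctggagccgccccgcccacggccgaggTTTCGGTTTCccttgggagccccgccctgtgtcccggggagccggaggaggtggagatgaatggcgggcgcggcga
TRIM5: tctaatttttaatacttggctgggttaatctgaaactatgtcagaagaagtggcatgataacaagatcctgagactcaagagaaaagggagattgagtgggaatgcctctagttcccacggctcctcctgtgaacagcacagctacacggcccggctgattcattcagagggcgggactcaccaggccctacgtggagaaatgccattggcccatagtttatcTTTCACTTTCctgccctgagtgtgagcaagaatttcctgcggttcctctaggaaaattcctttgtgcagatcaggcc
TRIM21: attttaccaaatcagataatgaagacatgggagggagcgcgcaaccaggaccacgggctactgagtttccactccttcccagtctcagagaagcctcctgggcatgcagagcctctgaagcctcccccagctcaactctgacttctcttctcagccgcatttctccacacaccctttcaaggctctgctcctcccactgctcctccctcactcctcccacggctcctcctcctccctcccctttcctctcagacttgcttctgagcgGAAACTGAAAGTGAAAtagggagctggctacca
TRIM26: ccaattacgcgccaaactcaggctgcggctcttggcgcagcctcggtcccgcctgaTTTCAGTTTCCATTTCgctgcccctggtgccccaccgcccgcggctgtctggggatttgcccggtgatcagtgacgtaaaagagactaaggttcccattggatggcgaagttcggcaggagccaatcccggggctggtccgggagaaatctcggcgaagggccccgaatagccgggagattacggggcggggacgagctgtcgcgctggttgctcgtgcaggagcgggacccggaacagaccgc
TRIM69: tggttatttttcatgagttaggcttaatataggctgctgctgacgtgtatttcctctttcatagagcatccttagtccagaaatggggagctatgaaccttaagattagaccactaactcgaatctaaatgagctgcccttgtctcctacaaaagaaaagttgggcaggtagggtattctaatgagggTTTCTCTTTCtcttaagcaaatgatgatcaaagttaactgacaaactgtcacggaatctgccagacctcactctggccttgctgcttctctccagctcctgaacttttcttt
TRIM34: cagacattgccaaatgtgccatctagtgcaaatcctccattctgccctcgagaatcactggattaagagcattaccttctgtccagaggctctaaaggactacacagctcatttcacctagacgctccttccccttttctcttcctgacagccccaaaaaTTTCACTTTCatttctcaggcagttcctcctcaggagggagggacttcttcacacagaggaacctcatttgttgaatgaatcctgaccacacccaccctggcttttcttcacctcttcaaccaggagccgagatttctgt
TRIM31: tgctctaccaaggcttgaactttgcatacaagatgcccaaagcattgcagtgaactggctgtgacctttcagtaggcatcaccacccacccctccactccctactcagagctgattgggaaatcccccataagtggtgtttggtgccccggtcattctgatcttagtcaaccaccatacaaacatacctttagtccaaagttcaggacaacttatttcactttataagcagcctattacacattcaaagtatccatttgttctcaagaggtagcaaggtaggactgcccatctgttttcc

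Counted from the transcript start, the core began at base -26 in TRIM14 and at -27 in TRIM5, both on the strand opposite to the gene. In TRIM21 a pair of overlapping matches began at bases 18 and 24 on the strand of the gene. The match of TRIM69 began at -62, that of TRIM34 at -90, and the overlapping pair of TRIM26 at -194 and -188, all opposite to the gene. The 9 tested holders spanned log2 fold changes from -0.37 for TRIM34 to 1.99 for TRIM69, so holders occurred among called and uncalled members.

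Outside the interferon-inducible list, 35 members were tested, 11 were higher (31.4%, against 21.7% of all genes) and 7 lower (20%, against 20.3%), and the median log2 fold change was 0.18. The share of lower members outside the list was close to that of all genes. After TRIM31, TRIM36 rose most. It encodes a microtubule-associated ligase, had 6.02 and 5.03 CPM in shCON and 12.1 and 13.1 CPM in shZDHHC15 samples, and rose by 1.18 on the log2 scale (SE 0.179, adjusted p = 0.000105). The remaining 9 higher members rose by less than 1 on the log2 scale.

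The PHD-bromodomain members, which are nuclear cofactors, moved in both directions. TRIM28, the corepressor that KRAB zinc finger proteins recruit to silence retroelements, was the most abundant member per kilobase in both groups. It had 707 and 758 CPM in shCON and 512 and 521 CPM in shZDHHC15 samples, with a log2 fold change of -0.50 (SE 0.086, adjusted p = 0.000298), and its share of the family's CPM was 24.7% to 25.4% in shCON and 15% to 15.9% in shZDHHC15 samples. TRIM24, a coregulator of nuclear receptors, rose from 21.2 ± 0.278 to 36.9 ± 2.12 CPM (SD, n = 2; log2 fold change 0.80, SE 0.12, adjusted p = 0.000101). TRIM33, a ligase that acts on SMAD4, rose from 59.5 ± 9.09 to 86.2 ± 6.59 CPM (SD, n = 2; log2 fold change 0.53, SE 0.117, adjusted p = 0.00205). TRIM66, a relative of them without a RING finger, rose from 3.88 ± 0.551 to 7.31 ± 0.0216 CPM (SD, n = 2; log2 fold change 0.91, SE 0.21, adjusted p = 0.003). TRIM28 was thus the member of this set that fell. An exon of TRIM66 overlaps the abundant ribosomal gene RPL27A on the opposite strand over 94 bases, and RPL27A had between 7315 and 7871 counts per sample.

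**Figure D3:**
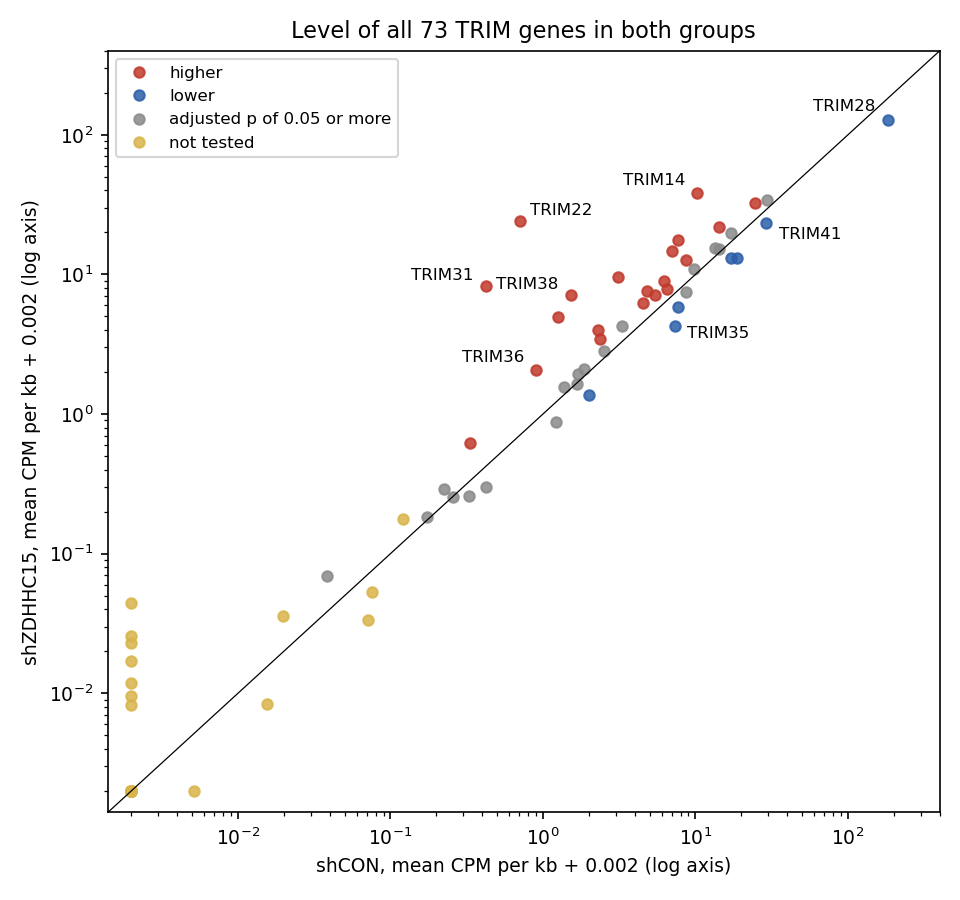
Mean CPM per kilobase of gene length of all 73 TRIM genes in shCON (horizontal) and shZDHHC15 cells (vertical) on log axes, with a small constant added so that 0 can be drawn and the diagonal marking equal levels. TRIM28 leads in both groups (182 and 128 CPM per kilobase), TRIM22 and TRIM31 lie far above the diagonal, and the untested members lie towards the lower left.

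The 7 lower members were TRIM35, TRIM59, TRIM8, TRIM28, TRIM11, TRIM7 and TRIM41. TRIM35, a SPRY-domain ligase on chromosome 8 from 27284887 to 27311319, fell most, from 30.5 and 31.8 CPM in shCON to 16.2 and 20.6 CPM in shZDHHC15 samples (log2 fold change -0.76, SE 0.137, adjusted p = 0.00048). TRIM8, a regulator of SOCS1 and of NF-kappaB signalling, fell from 179 ± 3.57 to 126 ± 10.1 CPM (SD, n = 2; log2 fold change -0.51, SE 0.0956, adjusted p = 0.000621). TRIM8 dropped from the 5th to the 13th place of the family per kilobase. TRIM11 had 144 ± 3.83 and 110 ± 2.29 CPM (SD, n = 2; log2 fold change -0.39, SE 0.0927, adjusted p = 0.00372). The calls of TRIM35, TRIM8, TRIM28 and TRIM11 held under the 10 alternatives, with TRIM11 at the threshold without shZDHHC15 replicate 1 (adjusted p = 0.05 after rounding).

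The other 3 falls were less firm. TRIM59, a membrane-anchored ligase, fell from 15.6 ± 3.17 to 10.7 ± 1.73 CPM (SD, n = 2; log2 fold change -0.55, SE 0.177, adjusted p = 0.0209), and 19.8% of its exonic bases overlap SMC4 on the opposite strand, which had 2159 and 1210 counts in shCON and 2167 and 2145 counts in shZDHHC15 samples. Leaving out single samples moved its log2 fold change from -0.75 to -0.36, and the call was lost without shCON replicate 1 (adjusted p = 0.13) and without shZDHHC15 replicate 2 (adjusted p = 0.133). It was also lost with library size only (adjusted p = 0.0529) and without the low-count filter (adjusted p = 0.0996). TRIM7, a ligase that binds glycogenin, fell from 56.2 ± 4.09 to 43.2 ± 0.119 CPM (SD, n = 2; log2 fold change -0.38, SE 0.108, adjusted p = 0.0109), and that call was lost without shZDHHC15 replicate 1 (adjusted p = 0.0665) or replicate 2 (adjusted p = 0.054). TRIM41, the 3rd most abundant member per kilobase in shCON cells, fell from 373 ± 34.9 to 301 ± 1.46 CPM (SD, n = 2; log2 fold change -0.31, SE 0.0927, adjusted p = 0.0154). Its call was lost without shCON replicate 2 (adjusted p = 0.0766), without shZDHHC15 replicate 1 (adjusted p = 0.0898) and without shZDHHC15 replicate 2 (adjusted p = 0.0857), and also without the low-count filter (adjusted p = 0.0545).

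The remaining higher members were TRIM37, TRIM16L, TRIM32, TRIM52, TRIM2 and TRIM44, with log2 fold changes from 0.27 to 0.65. TRIM37, a centrosome and histone ligase, was raised by 0.65 (SE 0.122, adjusted p = 0.000639). TRIM32, an NHL-repeat ligase mutated in a limb-girdle muscular dystrophy, was raised by 0.53 (SE 0.121, adjusted p = 0.0026). TRIM16L was raised by 0.61 (SE 0.101, adjusted p = 0.000215), while TRIM16 had a log2 fold change of 0.20 and did not pass (adjusted p = 0.133). These paralogs share a stretch of 3189 bases and the best match between them was 100% identical, so how their reads were split is uncertain. The calls of TRIM2 (log2 fold change 0.38) and TRIM44 (0.27) were lost with samples left out: TRIM2 without shCON replicate 2 or shZDHHC15 replicate 1, and TRIM44 without any one of the 4 samples. Without shZDHHC15 replicate 1 the adjusted p was 0.303 for TRIM2 and 0.298 for TRIM44, and without shCON replicate 2 the log2 fold change of TRIM2 was 0.21. Both calls were also lost without the low-count filter (adjusted p = 0.18 and 0.112), and that of TRIM44 by DESeq2 (adjusted p = 0.0735).

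Neighbouring TRIM genes differed in the size and sign of their fold changes. On the short arm of chromosome 11, TRIM6, TRIM34, TRIM5 and TRIM22 start between positions 5596109 and 5689689, and their log2 fold changes were 0.55, -0.37, 1.61 and 5.09. TRIM68, at 4598672 to 4608259 between TRIM21 and this group, had 0 and 0 counts in shCON and 1 and 0 counts in shZDHHC15 samples. Around the MHC region of chromosome 6, TRIM31 stood at 4.27 and TRIM26, which ends at 30213427, at 0.42, whereas TRIM40, TRIM10 and TRIM15 between them had at most 4 counts in any sample. TRIM39, further along, had a log2 fold change of 0.18 (adjusted p = 0.397). At the end of chromosome 5, TRIM7 and TRIM41 fell by 0.38 and by 0.31 on the log2 scale, and TRIM52, starting at 181254417, was higher by 0.46 (SE 0.114, adjusted p = 0.00497). CTC-338M12.4 overlaps 28.5% of the exonic bases of TRIM52 on the opposite strand. It had 333 and 293 counts in shCON and 295 and 349 counts in shZDHHC15 samples.

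**Figure D4:**
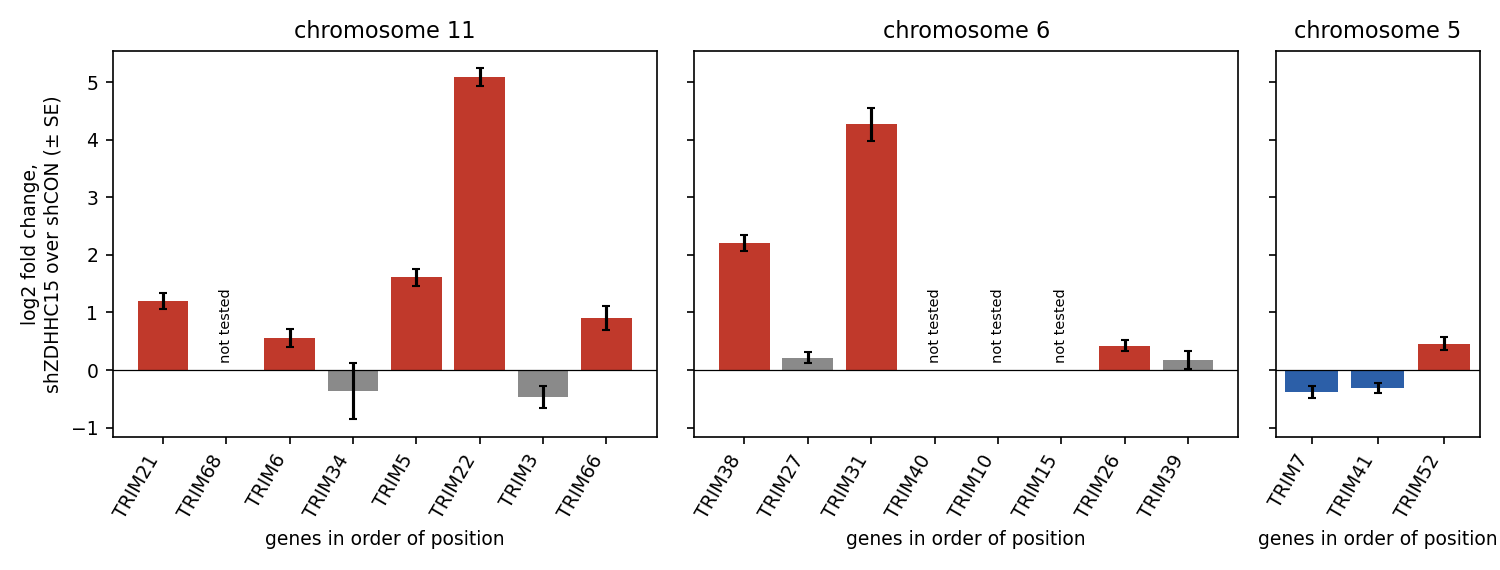
Log2 fold change (bars, ± standard error) of TRIM genes in order of position on the short arm of chromosome 11, around the MHC region of chromosome 6 and at the end of chromosome 5. Red bars were called higher, blue bars lower and grey bars neither, and the highest bars are TRIM22 (5.09), between TRIM5 (1.61) and TRIM3 (-0.47), and TRIM31 (4.27), between TRIM27 (0.21) and the untested TRIM40.

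By the part behind the coiled coil, 38 members fell in subfamily C-IV, which carries a SPRY domain, and 20 of them were tested. Of these, 7 were higher (35%, against 21.7% of all genes) and 4 lower (20%, against 20.3%), with a median of 0.21. Subfamily C-I, to which TRIM36 belongs, also carries a SPRY domain and is not in these counts. The 6 members without a RING finger were all tested, with a median of 0.44. Of them, 4 were higher (66.7%, against 21.7% of all genes) and 0 lower (against 20.3%). Subfamily C-V, which has no known domain at that end, had 4 of 8 members tested. TRIM31, TRIM56 and TRIM52 were higher (75%, against 21.7% of all genes) and TRIM8 lower (25%, against 20.3%). In sets this small, single genes move the shares widely. Of the 3 tested NHL-repeat members (subfamily C-VII), TRIM2 and TRIM32 were higher (66.7%, against 21.7% of all genes) and none was lower (against 20.3%). TRIM3 had a log2 fold change of -0.47 (adjusted p = 0.0577). The muscle ligases of subfamily C-II had few counts: TRIM54 had 10 and 30 counts in shCON and 8 and 24 counts in shZDHHC15 samples, and TRIM55 and TRIM63 had at most 2 counts in any sample. TRIM29, known from basal epithelium, had 17.0 ± 3.39 and 16.7 ± 0.262 CPM (SD, n = 2), with a log2 fold change of -0.02 (SE 0.155, adjusted p = 0.924).

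The 27 members that were not tested had few or no counts, and 24 of them were at or under the floor of 3 counts in every sample. No count in any sample was received by 14 of them, which are TRIM42, TRIM43B, TRIM48, TRIM49B, TRIM49C, TRIM50, TRIM51, TRIM58, TRIM60, TRIM61, TRIM64, TRIM64B, TRIM64C and TRIM77. The other 13, TRIM10, TRIM15, TRIM40, TRIM43, TRIM49, TRIM55, TRIM63, TRIM68, TRIM71, TRIM72, TRIM73, TRIM74 and TRIM75P, had between 0 and 10 counts per sample. The highest of them were the near-identical pair TRIM73 and TRIM74, which share 1350 bases at up to 99.85% identity and had 4 and 10 counts and 2 and 4 counts in the shCON samples. On chromosome 11, 10 of the 19 members were at the floor, including the near-identical copies TRIM49, TRIM49B and TRIM49C. Reads that fit several copies may have been left uncounted, so a count of 0 limits only reads assigned to 1 copy.

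Genes that work with TRIM ligases were described by lists written in the same way. Of 13 ubiquitin-conjugating enzymes that serve TRIM ligases or interferon-linked conjugation, 1 was higher (7.69%, against 21.7% of all genes) and 4 lower (30.8%, against 20.3%), with a median log2 fold change of -0.22. UBE2L6, which conjugates ISG15, rose from 68.0 ± 5.91 to 344 ± 34.6 CPM (SD, n = 2; log2 fold change 2.34, adjusted p = 3.98e-10). UBE2E3 fell most, by 0.79 on the log2 scale (adjusted p = 5.84e-05). The common partners of the UBE2D group lay between -0.48 for UBE2D1 (adjusted p = 0.00194) and -0.01 for UBE2D3 (adjusted p = 0.968).

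Of 13 genes of the RIG-I and STING chain, 9 were higher (69.2%, against 21.7% of all genes) and 0 lower (against 20.3%), with a median of 1.00. Without shCON replicate 1, 1 of them was called lower. By edgeR at an unadjusted p under 0.05, 1 of them was lower, and by DESeq2 none. The sensor gene DHX58 rose most (log2 fold change 3.61, adjusted p = 7.34e-09), and DDX58, which encodes the TRIM25 substrate RIG-I, rose from 18.6 ± 1.83 to 143 ± 18.1 CPM (SD, n = 2). MAVS, on which TRIM14 and TRIM31 act, had a log2 fold change of -0.07 (adjusted p = 0.588), and the lowest value was that of IRF3 (-0.22, adjusted p = 0.0947). Among interferon-linked transcription factor genes, STAT2, IRF9 and IRF1 were called higher. On the log2 scale STAT2 rose by 1.90 (SE 0.0993), IRF9 by 1.88 (SE 0.236) and IRF1 by 0.49 (SE 0.098, adjusted p = 0.00097).

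Of 12 partners of TRIM28 in silencing, 3 were higher (25%, near the 21.7% of all genes) and 1 lower (8.33%, against 20.3%), with a median of 0.25. CHD3, a remodelling subunit, rose by 0.92 (adjusted p = 2.39e-06), CBX1, a heterochromatin protein gene, fell by 0.34 on the log2 scale (adjusted p = 0.00708), and SETDB1, the methyltransferase that TRIM28 recruits, had a log2 fold change of 0.28 (adjusted p = 0.0739). The count of higher partners was 2 to 5 with single samples left out and 7 with library size as the only scaling, and it was 5 with the replicate number as a block. CBX1 was not called without shZDHHC15 replicate 2, where no partner was lower. Of 7 TRIM proteins that carry other symbols, 6 were tested. Of these 6, 3 were higher (50%, against 21.7% of all genes) and 0 lower (against 20.3%). PML, also TRIM19 and the organizer of nuclear bodies, rose from 105 ± 1.91 to 251 ± 9.6 CPM (SD, n = 2; log2 fold change 1.26, adjusted p = 7.95e-08). MEFV, which encodes pyrin, rose most on the log2 scale, by 1.87 (adjusted p = 0.00071), with 12 and 17 counts under shCON and 62 and 54 counts under shZDHHC15. MID1 (log2 fold change -0.13) and MID2 (0.18), microtubule-binding relatives of TRIM36, did not pass the test.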

How the data were processed

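The deposited table lists whole read counts for each gene and each of 4 samples, not normalized by the authors. The submitters' processing notes name HISAT2, StringTie, SAMtools and hg38 without versions, and the counting tool and its strand setting are not given in the sources used here. The NEBNext Ultra kit was used. All 73 members matched GENCODE release 29 in position, strand and symbol. Overlaps of exons come from that release, and near-identical stretches (at least 150 bases and 97% identity between transcripts) from BLAST 2.17.0.

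Genes passing filterByExpr were tested with edgeR 4.0.16 in R 4.3.3 (TMM factors, glmQLFit with legacy = FALSE, glmQLFTest). CPM values are TMM-normalized, and each standard error was taken as the fold change divided by the root of F. The common biological coefficient of variation was 0.0878. Samples of a group differed by more than counting noise (chi-square per degree of freedom 8.32 for shCON and 6.79 for shZDHHC15). An exact permutation of 2 against 2 samples cannot go below a two-sided p of 0.333, so the p-values rest on the spread shared among genes. The test was checked on simulated counts.

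Alternatives were DESeq2 1.42.0 size factors or Wald test, library size only, no filter, at least 10 counts in every sample, the replicate number as a block, and leaving out each sample. Named were the tested members of the interferon-inducible list, the 10 largest rises and falls, the 5 highest per kilobase, the PHD-bromodomain members, and the extremes of the pathway lists. The other members and list genes were named after their values were seen, to account for the members or for their role. Members and lists were chosen with earlier results of these data known. Of the genes these rules name, 1 is not reported here.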

Additional observations from a re-analysis of the deposited data

How the results depend on the processing

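The 20 higher and 7 lower TRIM genes became 16 to 20 and 4 to 6 with each sample left out in turn, where the lone sample of a group was assumed to vary like the pair. The 4 lower genes were found without shZDHHC15 replicate 2. Without any one sample the list of interferon-inducible genes had 7 to 9 higher and 0 lower members. With every other alternative 18 to 23 members were higher and 5 to 7 lower. The median of the tested members was 0.24, but 0.31 with library size only, 0.34 with no filter on low counts, and 0.22 to 0.32 with a sample left out. Without the filter 2282 genes were higher over all genes, against 3427. The median of all genes moved from 0.0155 to 0.0896 with library size only. TRIM34 (-0.37) reversed to 0.04 without shZDHHC15 replicate 2 and was -0.94 without shZDHHC15 replicate 1. Without shZDHHC15 replicate 1 the interferon-inducible list lost TRIM6 and TRIM26. The cause was not tested. Same-numbered samples deviated together only weakly (r = 0.0821), and the numbers name no shared culture. With the replicate number as a block, 22 members were higher and 7 lower, and 20 and 7 of them were those of the main fit. With 2 samples per group, members near the filter, such as TRIM34 and TRIM67, carry standard errors of 0.484 and 0.564, so that only large changes were detectable for them.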

Other observations

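Among the 40 TRIM rows that the symbol rule leaves out, 33 had no count in any sample. TRIM52-AS1, a transcript beside TRIM52, fell from 26.2 ± 1.72 to 15.5 ± 0.933 CPM (SD, n = 2; log2 fold change -0.76, standard error 0.133, adjusted p = 0.000372 by edgeR's quasi-likelihood test), whereas TRIM52 itself was higher by 0.46. The pseudogene TRIM60P18 had 3 and 3 counts in shCON and 9 and 9 counts in shZDHHC15 samples and was not tested. TRIML2 had 41 and 36 counts in shCON and 26 and 46 counts in shZDHHC15 samples (log2 fold change -0.22, adjusted p = 0.624).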
